A study of Mus musculus with 10 samples.

Results

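The genes described here are 10 members of the KEAP1-NRF2 antioxidant pathway, taken by name from the 28987 genes listed in TPM (transcript abundance scaled within each library) for each of 10 RNA-seq libraries. They are the transcription factor gene Nfe2l2, its inhibitor Keap1, and the target genes Nqo1, Hmox1, Gclc, Gclm, Txnrd1, Srxn1, Slc7a11 and Sqstm1. The libraries came from inguinal fat of male C57BL/6 mice aged 6 to 8 weeks, digested and cultured to confluence, and the labels name the cells primary white adipocytes. Each of 5 treatments lasted 24 h and has 2 libraries. The treatments were recombinant BAFF at 500 ng/ml, recombinant APRIL at 500 ng/ml (both ligands of the TNF family), LPS (lipopolysaccharide, from bacterial outer membrane) at 100 ng/ml, norepinephrine at 1 mM, and saline. One label calls the source adipocytes and another adipose tissue, and whether replicate libraries are from different mice or dishes is not stated. The p-values therefore measure only the spread between these libraries, which may be technical.

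NRF2, the protein made from Nfe2l2, is held low in resting cells by KEAP1, an adaptor that hands it to the CUL3 ubiquitin ligase for degradation. Oxidants and electrophiles modify KEAP1, NRF2 then builds up, pairs with a small Maf protein and binds antioxidant response elements near its targets. Much of this control is on the protein, so the Nfe2l2 transcript is not a measure of NRF2 activity. The targets make glutathione (Gclc, Gclm), import the cystine for it (Slc7a11), keep thioredoxin and peroxiredoxins reduced (Txnrd1, Srxn1), reduce quinones (Nqo1) and break down heme (Hmox1). Sqstm1 encodes p62, an autophagy receptor that also binds KEAP1, and several of these genes answer to other factors as well, such as BACH1 at Hmox1 and ATF4 at Slc7a11. In fat, these genes are studied in adipocyte differentiation and in the inflammation of obesity.

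The libraries listed 953553 to 964726 TPM in all, with 12845 to 13115 genes at 1 TPM or more, and hold no counts, so their depth is unknown. Both libraries labelled APRIL stand apart. Across genes they correlated at 0.850 to 0.886 with the other 8, which correlated at 0.948 to 0.991 among themselves. Uty, Kdm5d, Eif2s3y and Ddx3y, 4 genes of the Y chromosome, had a total of 0.489 and 0.775 TPM for the libraries labelled APRIL, against 93.8 to 123 TPM in the other 8, although all are labelled male. Summed preadipocyte and fibroblast markers reached 1966 to 2448 TPM in the libraries labelled APRIL, against 8849 to 10025 in saline, and smooth muscle and pericyte markers 377 to 613, against 1471 to 1555. Summed adipocyte markers were 7223 to 8922 TPM with BAFF, 2619 to 5536 in the libraries labelled APRIL, 5189 to 5766 with LPS, 14070 to 14518 with norepinephrine and 7520 to 8426 in saline. The single markers did not all move alike in the libraries labelled APRIL, by the test described below. Of 7 fibroblast markers tested, 1 passed as higher than saline and 4 as lower, and of 7 adipocyte markers 1 and 3. All 6 smooth muscle and pericyte markers passed as lower. Of all 14166 genes tested, 4694 passed as higher in this comparison and 3542 as lower. Of the 8 adipocyte markers 1, the leptin gene Lep, averaged under 1 TPM in every group. In bulk cultures such as these, fewer cells of a type and less RNA per cell cannot be told apart.

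In saline cultures the members spanned a wide range of levels. Sqstm1 led with 516 ± 43.9 TPM (mean ± SD, n = 2 libraries, as for every group mean below), rank 243 of the 14166 genes tested, and took 56.3% of the members' summed TPM. Hmox1 followed with 188 ± 52.8 TPM at rank 619, or 20.5% of the sum. Nfe2l2 at 53.7 ± 1.01, Gclm at 52.5 ± 4.50, Srxn1 at 39.4 ± 4.78, Txnrd1 at 32.2 ± 1.33 and Keap1 at 19.99 ± 2.20 TPM formed a middle group. The lowest were Gclc at 8.05 ± 0.602, Nqo1 at 5.06 ± 0.474 and Slc7a11 at 1.92 ± 0.0568 TPM, the last at rank 11791. The quinone reductase gene Nqo1, often used as a marker of NRF2 activity, was thus among the scarcer members here. All 10 passed the filter for testing, 1 TPM in at least 2 libraries. In the GENCODE annotation of mm10 the regulators lie at chr2:75675513-75704641 (Nfe2l2) and chr9:21229730-21239361 (Keap1), and the most abundant targets at chr11:50199366-50210827 (Sqstm1) and chr8:75093621-75100589 (Hmox1). The glutathione genes lie at chr9:77754535-77794485 (Gclc), chr3:122245557-122270732 (Gclm) and chr3:49892526-50443614 (Slc7a11), the thioredoxin genes at chr10:82833951-82897712 (Txnrd1) and chr2:152105516-152111376 (Srxn1), and Nqo1 at chr8:107388225-107403206.

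The promoters show where letters of the kind that NRF2 and its partners recognise lie near these genes. The 250 bases before each RefSeq transcription start (GRCm38.p6) were matched for 8 of the 10 members, on both strands, to the antioxidant response element core TGACNNNGC and to TGANTCAGC, a core for CNC factors (the family of NRF2 and BACH1) with small Maf proteins. A single site can match both cores. The first core was in 3 of the 8 genes (37.5%), against 11.5% of 27025 genes, the second in 1 of 8 (12.5%), against 1.17%, and either in 4 of 8 (50%), against 12.2%. These 4 genes were higher in the libraries labelled APRIL than in saline, as described below. So were Slc7a11 and Sqstm1, whose windows hold no match, and Hmox1 and Gclc, for which no window was read. The 4 windows that hold a match are shown. Each reads 5′ to 3′ on the gene's own strand and ends just before its start, with the matched letters in capitals.
Nfe2l2 promoter, chr2:75704664-75704913, minus strand: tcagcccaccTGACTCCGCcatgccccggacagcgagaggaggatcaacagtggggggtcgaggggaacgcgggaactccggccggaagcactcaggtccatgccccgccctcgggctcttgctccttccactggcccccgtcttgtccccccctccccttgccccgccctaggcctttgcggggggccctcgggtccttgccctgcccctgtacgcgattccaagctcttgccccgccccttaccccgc
Gclm promoter, chr3:122245307-122245556, plus strand: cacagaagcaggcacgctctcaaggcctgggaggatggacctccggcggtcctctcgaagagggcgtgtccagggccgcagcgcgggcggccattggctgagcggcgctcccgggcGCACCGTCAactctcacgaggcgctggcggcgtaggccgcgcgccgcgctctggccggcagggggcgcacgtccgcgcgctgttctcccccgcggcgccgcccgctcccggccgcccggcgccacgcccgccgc
Txnrd1 promoter, chr10:82858956-82859205, plus strand: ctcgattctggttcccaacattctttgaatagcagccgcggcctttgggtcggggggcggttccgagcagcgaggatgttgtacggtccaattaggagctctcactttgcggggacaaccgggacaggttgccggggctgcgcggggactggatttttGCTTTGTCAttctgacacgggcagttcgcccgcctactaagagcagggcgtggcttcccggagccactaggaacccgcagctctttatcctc
Srxn1 promoter, chr2:152105274-152105523, plus strand: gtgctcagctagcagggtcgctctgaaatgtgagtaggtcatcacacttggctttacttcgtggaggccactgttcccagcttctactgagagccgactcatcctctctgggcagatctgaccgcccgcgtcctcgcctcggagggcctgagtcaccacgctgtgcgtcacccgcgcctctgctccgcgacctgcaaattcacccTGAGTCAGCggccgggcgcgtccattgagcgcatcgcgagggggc
The match begins 240 bases before the start in Nfe2l2 and 45 bases before it in Srxn1. In Gclm and Txnrd1 the core lies on the opposite strand, as TGACGGTGC and TGACAAAGC, and begins 134 and 92 bases before the start. The Txnrd1 window is 1 of 3 annotated starts. A match of letters is a description and not evidence of binding, and the genes Keap1, Nqo1, Slc7a11 and Sqstm1, whose windows hold no match, may carry such elements elsewhere.

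The largest differences were between the libraries labelled APRIL and saline. By the labels this sets the ligand against saline, but the Y-linked values of those libraries go against their label, so the treatment and another origin of the samples cannot be told apart. There 8 of the 10 members were higher, at least 4.37-fold in mean TPM, while Keap1 and Nqo1 did not pass the test. The members' summed TPM was 10942 and 6221 in the libraries labelled APRIL, against 988 and 846 in saline. Differences are on the log2(TPM + 1) scale with their standard errors, which understates change in scarce genes, and adjusted p-values are from limma with Benjamini-Hochberg adjustment over all genes tested, called at 0.05. In the same comparison 58.1% of all genes passed and 33.1% passed as higher, so a call alone sets no member apart. The members' median difference was 2.39, against 0.08 over all genes.

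Nfe2l2 had 300.94 and 300.86 TPM in the libraries labelled APRIL, against 54.4 and 52.9 TPM in saline. The groups were far apart and the replicates nearly equal, a difference of 2.47 ± 0.09 (adjusted p = 3.45e-06, limma). Its inhibitor Keap1 did not pass the test. It had 24.0 and 17.1 TPM in the libraries labelled APRIL, against 21.5 and 18.4 TPM in saline, and the groups overlapped. The difference of 0.03 has a 95% interval of -0.35 to 0.40 (adjusted p = 0.907, limma) and turns to -0.07 under median-ratio scaling. Keap1 shares 510 of its 4693 exon bases with an antisense gene on the other strand, and the labels do not say whether the library kit kept strand.

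The glutathione genes were higher together. Gclc, the catalytic subunit of the enzyme that starts glutathione synthesis, had 74.3 and 43.2 TPM in the libraries labelled APRIL, against 7.63 and 8.48 TPM in saline (2.67 ± 0.22, adjusted p = 5.40e-05, limma). Its modifier subunit Gclm had 415 and 200.4 TPM in the libraries labelled APRIL, against 49.3 and 55.7 TPM in saline (2.44 ± 0.29, adjusted p = 0.000279, limma). Both genes were above every saline value in both libraries. Gclm shares a stretch of 287 bases at 99.6% identity with Ppia, a cyclophilin gene, and similar stretches with Ppia pseudogenes, so some reads could be split. Ppia averaged 46.5 TPM in the libraries labelled APRIL, against 62.5 TPM in saline. Slc7a11, the cystine importer, had 25.3 and 6.79 TPM in the libraries labelled APRIL, against 1.88 and 1.97 TPM in saline (2.29 ± 0.53, adjusted p = 0.00692, limma). The groups did not overlap, but the libraries labelled APRIL differed 3.72-fold, and the difference was 1.41 without replicate 1 of that group and 3.17 without replicate 2, past 0.05 in both cases. Slc7a11 shares 373 bases at about 96.0% identity with the tubulin gene Tuba1a, which averaged 23.1 TPM in the libraries labelled APRIL, against 558 TPM in saline.

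Of the thioredoxin genes, Txnrd1, which reduces thioredoxin with NADPH, had 224 and 126 TPM in the libraries labelled APRIL, against 33.2 and 31.3 TPM in saline (2.34 ± 0.23, adjusted p = 0.000115, limma). Srxn1, which restores over-oxidised peroxiredoxins, had 289 and 55.3 TPM in the libraries labelled APRIL, against 42.8 and 36.0 TPM in saline. Its replicates differed 5.23-fold, the widest gap among the members in these libraries, and its call is marginal (1.67 ± 0.62, adjusted p = 0.04997, limma). It fell short with a pseudocount of 0.1 (adjusted p = 0.0509), with no filter (0.0999), with the 4 compared libraries alone (0.160) and under median-ratio scaling (0.0537). Leaving out any single library except replicate 2 of the libraries labelled APRIL also ended the call, with a difference of 0.48 (adjusted p = 0.0870) without their replicate 1 and 2.85 (adjusted p = 0.000165) without their replicate 2.

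Hmox1, which breaks heme down to iron, carbon monoxide and biliverdin, showed the largest fold among the members, 21.6-fold in mean TPM. It had 5610 and 2521 TPM in the libraries labelled APRIL, against 226 and 151 TPM in saline (4.34 ± 0.54, adjusted p = 0.000336, limma). Sqstm1 had 3972 and 2946 TPM in the libraries labelled APRIL, against 547 and 485 TPM in saline (2.73 ± 0.18, adjusted p = 2.43e-05, limma). Both genes stayed far above saline in each library. Sqstm1 shares 580 of its 3356 exon bases with Mrnip on the opposite strand, which lay between 2.30 and 4.85 TPM in all 10 libraries. Nqo1 alone among the enzymes did not pass, with 7.58 and 4.96 TPM in the libraries labelled APRIL, against 4.72 and 5.39 TPM in saline. The groups overlapped, and the difference of 0.24 has a 95% interval of -0.46 to 0.94 (adjusted p = 0.519, limma). Whether Nqo1 differed less than the other members was not tested.

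In these 8 members both libraries labelled APRIL were above both saline libraries, a pattern held by 42.5% of all genes. Replicate 1 of the libraries labelled APRIL was above replicate 2 in every member, by 1.00-fold for Nfe2l2, 1.35-fold for Sqstm1, 1.40-fold for Keap1, 1.53-fold for Nqo1, 1.72-fold for Gclc, 1.78-fold for Txnrd1, 2.07-fold for Gclm and 2.23-fold for Hmox1. The transcription factor gene was thus the steadiest of the 10 there, and Srxn1 and Slc7a11 were the widest apart. The summed markers of fibroblasts, smooth muscle and adipocytes and the Y-linked genes moved with this comparison, and their part in these differences was not tested.

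**Figure D1:**
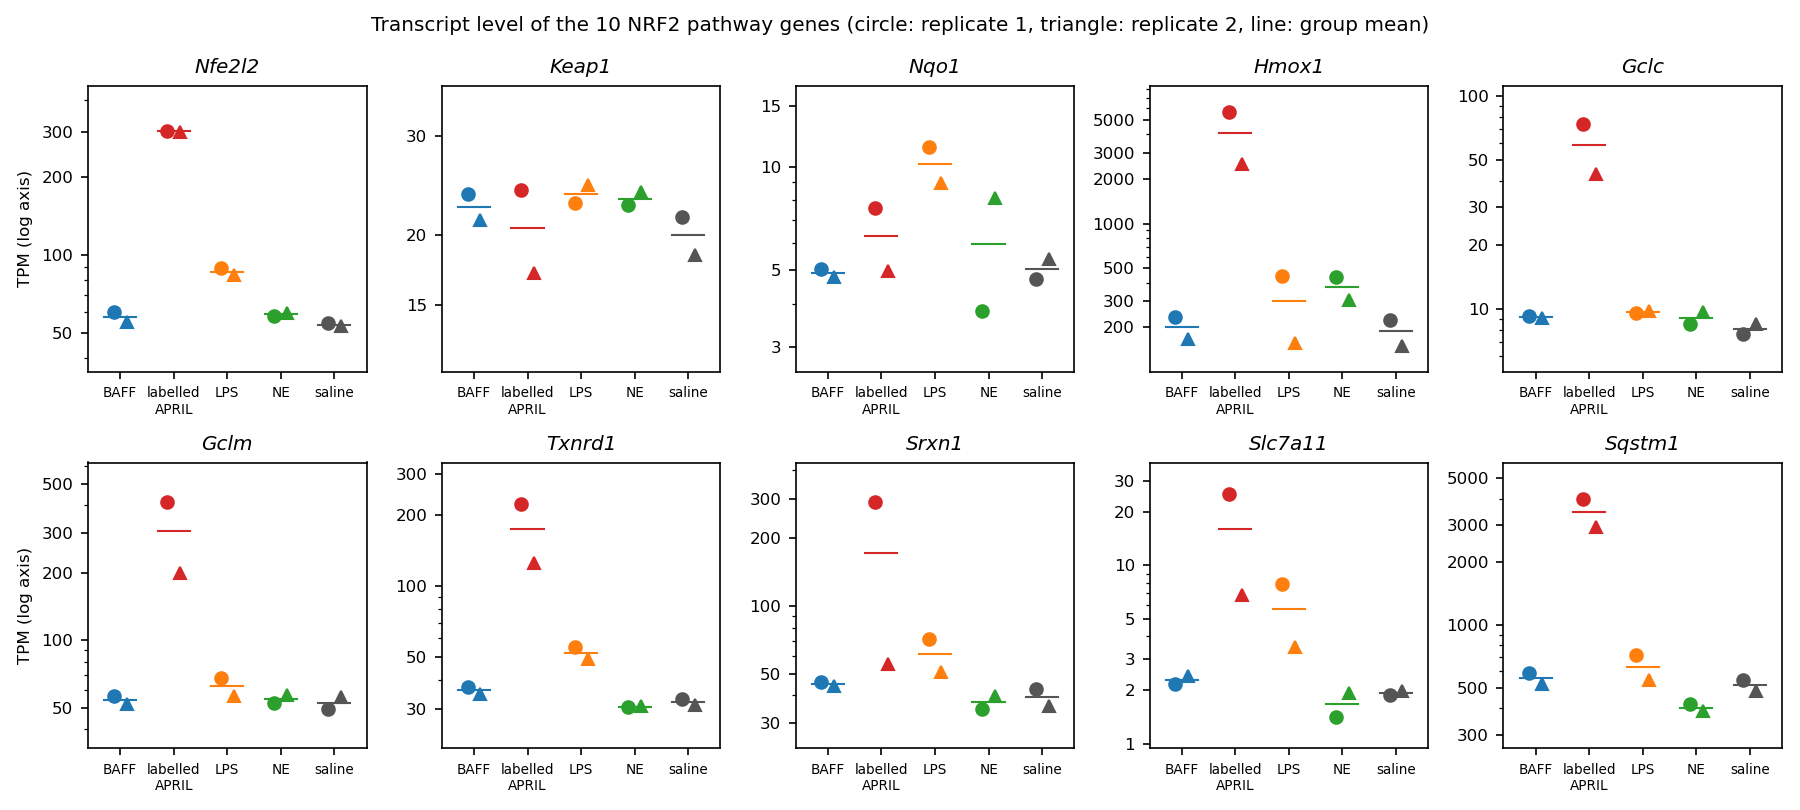
TPM of each of the 10 members in each of the 10 libraries, 1 panel a gene, with a log scale on the vertical axis, points for libraries and a bar for each group mean (NE, norepinephrine; n = 2 libraries each). The libraries labelled APRIL sit above all others for 6 members, between 43.2 TPM for Gclc and 5610 TPM for Hmox1, overlap LPS for Srxn1 and Slc7a11, lie within the range of the others for Nqo1, and hold the lowest Keap1 value of the 10 libraries, 17.1 TPM.

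BAFF and APRIL are related ligands that share receptors, and the direct comparison of the libraries given each asks whether they differ. Of the 10 members 7 were lower with BAFF, where 57.3% of all genes passed and 29.0% passed as lower. The differences were -2.36 for Nfe2l2 (adjusted p = 3.96e-06), -4.23 for Hmox1 (0.000411), -2.62 for Sqstm1 (3.09e-05), -2.50 for Gclc (7.76e-05), -2.40 for Gclm (0.000330), -2.19 for Txnrd1 (0.000170) and -2.13 for Slc7a11 (0.00973), all from limma. Srxn1, at 45.8 and 44.0 TPM with BAFF, against 289 and 55.3 TPM in the libraries labelled APRIL, did not pass (-1.48, adjusted p = 0.0752, limma). Keap1 differed by 0.14 and Nqo1 by -0.27, neither past 0.05. This comparison carries the same Y-linked and marker differences as that with saline, and the libraries labelled APRIL are the same in both.

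With LPS, the bacterial product that activates the receptor TLR4, Nfe2l2 itself was the 1 member that rose past 0.05. It had 88.7 and 83.8 TPM with LPS, against 54.4 and 52.9 TPM in saline, and 52.9 to 60.3 TPM over the 6 BAFF, norepinephrine and saline libraries. The LPS libraries thus stood clear of all 6 others. The difference was 0.67 ± 0.09, or 1.61-fold in mean TPM (95% interval 0.47 to 0.88, adjusted p = 0.00700, limma). In this comparison 3.80% of all genes passed and 2.87% passed as higher. The call holds without the libraries labelled APRIL (adjusted p = 0.00647), but not with the 4 compared libraries alone (0.0525), without LPS replicate 1 (0.0588), without saline replicate 1 (0.0605) or without saline replicate 2 (0.0826). Several marker sums moved with LPS. Those of adipocytes, given above, and of smooth muscle and pericytes, at 1080 and 1228 TPM with LPS, against 1471 and 1555 TPM in saline, were lower in both LPS libraries. The preadipocyte and fibroblast sum, at 10266 and 9558 TPM with LPS, overlapped that of saline, at 10025 and 8849 TPM. Of the 7 tested markers of that list 4 had a positive difference, of which Dcn, Pdgfra and Pi16 passed as higher. Pi16 averaged under 1 TPM in every group but LPS, so its entry to the test may rest on the LPS libraries alone. Among other markers, Myh11, Cspg4 and the adipocyte marker Adrb3 passed as lower, where 132 of all 14166 genes did. The part of these sums and markers in this difference was not tested.

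The target genes leaned upward with LPS but did not pass. All 10 members had a positive difference, with a median of 0.56, against -0.01 over all genes, and both LPS libraries were above both saline libraries in 8 of 10, a pattern held by 24.2% of all genes. Txnrd1 had 55.1 and 48.8 TPM with LPS, against 33.2 and 31.3 TPM in saline (0.67, adjusted p = 0.194, limma). Nqo1 had 11.4 and 8.96 TPM with LPS, against 4.72 and 5.39 TPM in saline, the highest level of this gene in any group (0.88, 95% interval 0.18 to 1.58, adjusted p = 0.192, limma). Both genes were separated from saline in each library yet missed the threshold once all genes were counted. Txnrd1 did pass when the libraries labelled APRIL were left out (adjusted p = 0.00989), and also without their replicate 1 (0.00972) or their replicate 2 (0.00961) alone. Slc7a11 had 7.88 and 3.48 TPM with LPS, against 1.88 and 1.97 TPM in saline (1.11, 95% interval -0.12 to 2.34, adjusted p = 0.361, limma). Srxn1 had 70.9 and 51.0 TPM with LPS, against 42.8 and 36.0 TPM in saline (0.60, adjusted p = 0.730, limma). The LPS replicates differed 2.26-fold for Slc7a11 and 1.39-fold for Srxn1, the latter against 1.19-fold in saline. The libraries labelled APRIL, which enter the same spread, differed 3.72-fold and 5.23-fold. With 1 library left out, the Slc7a11 difference lay between 0.62 and 1.60 and that of Srxn1 between 0.37 and 0.84. Neither gene passed when the libraries labelled APRIL were left out. Gclc, Gclm, Keap1 and Sqstm1 differed by 0.24 to 0.28, and the Sqstm1 libraries overlapped saline.

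Hmox1 did not pass the test with LPS, norepinephrine or BAFF, and its replicates lay apart within groups. It had 447 and 157 TPM with LPS and 436 and 307 TPM with norepinephrine, against 226 and 151 TPM in saline. Replicate 1 was above replicate 2 in 5 of 5 groups, by 2.84-fold with LPS, and so was replicate 1 of Sqstm1. The LPS difference of 0.52 (95% interval -0.73 to 1.77, adjusted p = 0.731, limma) becomes -0.23 without LPS replicate 1. Macrophages, which take up red cells and express Hmox1, can be present in digested fat. The summed TPM of 8 macrophage markers, of which Ptprc averaged under 1 TPM in every group, was 1028 and 479 with BAFF, 499.8 and 330 in the libraries labelled APRIL, 1579 and 434 with LPS, 1242 and 284 with norepinephrine, and 1218 and 410 in saline. It too was higher in replicate 1 of all 5 groups. Its part in the Hmox1 values was not tested.

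**Figure D2:**
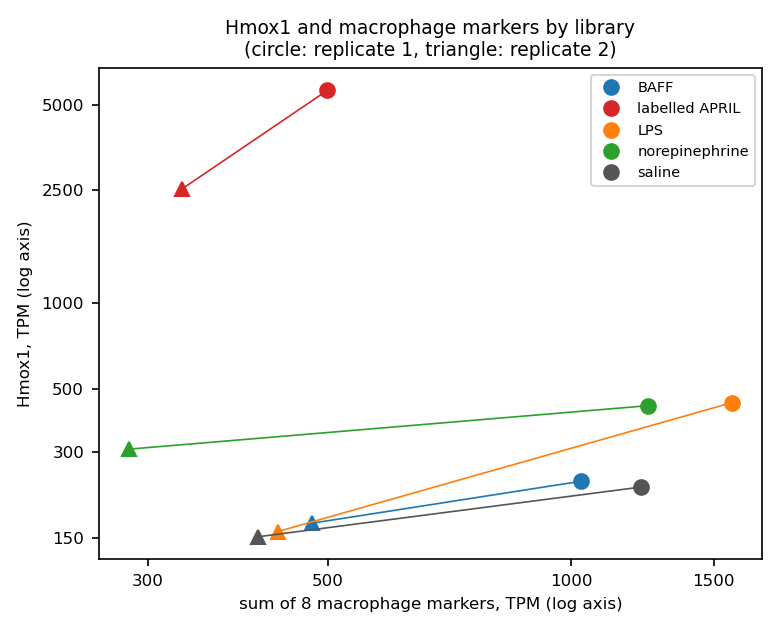
Hmox1 (vertical axis, TPM, log scale) against the summed TPM of 8 macrophage markers (horizontal axis, log scale) in the 10 libraries, with 1 colour a group and lines joining replicates 1 and 2. Replicate 1 lies above and to the right of replicate 2 in all 5 groups, and the libraries labelled APRIL, at 5610 and 2521 TPM of Hmox1, have 499.8 and 330 TPM of the markers.

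Norepinephrine, the transmitter that drives lipolysis and thermogenic genes in fat cells, moved none of the 10 members past an adjusted p of 0.05, where 0.699% of all genes passed in limma. No member reached an unadjusted p of 0.05 in limma either, and the share of all genes at that unadjusted level was not taken. The furthest from 0 was Hmox1, 1.97-fold in mean TPM, whose norepinephrine libraries were both above saline (0.98, 95% interval -0.27 to 2.24, adjusted p = 0.384, limma). Sqstm1 had 419 and 387 TPM with norepinephrine, against 547 and 485 TPM in saline, and was lower in both libraries (-0.36, 95% interval -0.78 to 0.07, adjusted p = 0.356, limma). These 2 genes, the most abundant members, thus had estimates of opposite sign, each with a 95% interval that includes 0. Both libraries were above both saline libraries in 4 members (Nfe2l2, Keap1, Hmox1 and Gclc), a pattern held by 34.0% of all genes. Both were below both saline libraries in 2 members, Sqstm1 and Txnrd1, a pattern held by 22.9% of all genes. Nqo1 spread from 3.80 to 8.08 TPM between the norepinephrine replicates. The members' median was 0.09, against 0.04 over all genes. Summed adipocyte markers were higher in both norepinephrine libraries than in saline, and those of smooth muscle and pericytes were lower, at 881 and 1022 TPM with norepinephrine, against 1471 and 1555 TPM in saline. Their part in these values was not tested.

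BAFF left the members close to saline. None passed an adjusted p of 0.05, where 2 of the 14166 genes (0.0141%) passed in limma. None reached an unadjusted p of 0.05 in limma either, and the share of all genes at that unadjusted level was not taken. The differences ran from -0.03 for Nqo1 to 0.19 for Srxn1, all with adjusted p of at least 0.996, and their median of 0.13 stood beside 0.11 over all genes. Nfe2l2 had 60.3 and 55.0 TPM with BAFF, against 54.4 and 52.9 TPM in saline (0.10, 95% interval -0.10 to 0.31). Gclc had 9.32 and 9.09 TPM with BAFF, against 7.63 and 8.48 TPM in saline (0.17, 95% interval -0.34 to 0.69). Both libraries were above both saline libraries in 5 members, a pattern held by 40.4% of all genes. Median-ratio scaling moved the median of all genes to -0.0017, and the sign of Nfe2l2, Hmox1, Gclm and Sqstm1 then turned negative, leaving 5 of 10 positive. The intervals were widest for Srxn1 (-1.26 to 1.64), Slc7a11 (-1.07 to 1.39) and Hmox1 (-1.14 to 1.37). Changes of that size in these 3 genes could not be seen in this fit. It takes the spread of a gene over all 10 libraries, including those labelled APRIL, which differed 5.23-fold for Srxn1 and 3.72-fold for Slc7a11. The BAFF replicates lay closer, at 45.8 and 44.0 TPM for Srxn1 and 2.15 and 2.38 TPM for Slc7a11.

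**Figure D3:**
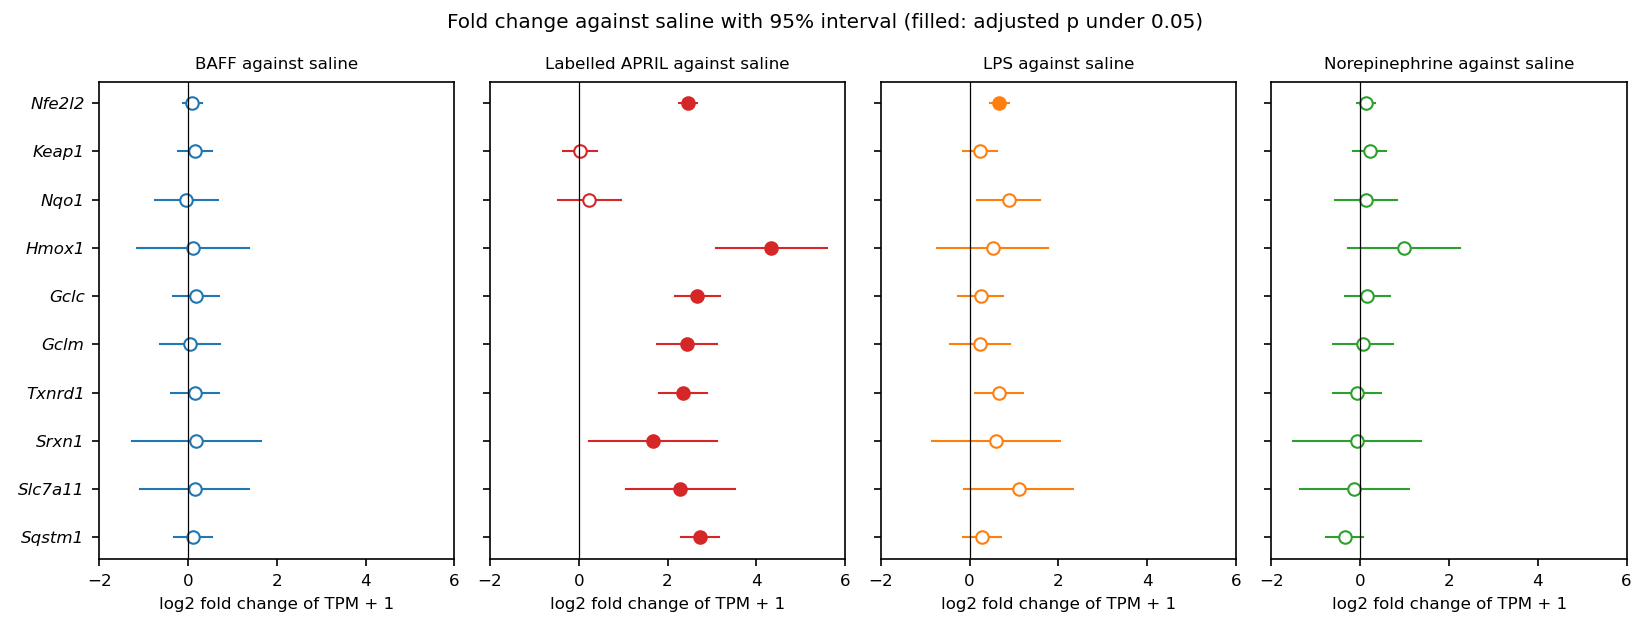
Difference from saline in log2(TPM + 1) for each member (rows), with 1 panel for each of the 4 treatments set against saline, with the difference on the horizontal axis, points for estimates, bars for 95% intervals from limma and filled points for calls past 0.05. In the libraries labelled APRIL 8 members are past 0.05, from 1.67 for Srxn1 to 4.34 for Hmox1; with LPS only Nfe2l2 is, at 0.67, and with BAFF and norepinephrine none.

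Over all 5 groups, the F test of limma called 7 of the 10 members, where 60.4% of all genes passed. Srxn1 (adjusted p = 0.154), Nqo1 (0.121) and Keap1 (0.561) did not pass. Over the 4 groups other than APRIL it called only Nfe2l2 (adjusted p = 0.0159), where 4.68% of all genes passed, and the next members were Sqstm1 (0.210), Txnrd1 (0.216) and Nqo1 (0.222). Keap1 was the flattest member, with the highest group mean 1.19 times the lowest. The order of the groups was much the same for several targets. Nfe2l2 was highest in the libraries labelled APRIL, then with LPS, then with norepinephrine and BAFF, whose libraries overlapped, and lowest in saline. Txnrd1 fell in the order APRIL, LPS, BAFF, saline, norepinephrine with no overlap between neighbours. Gclc was highest in the libraries labelled APRIL and lowest in saline, with norepinephrine overlapping both LPS and BAFF between. For Srxn1 and Slc7a11 the libraries labelled APRIL and LPS overlapped, both above BAFF, and saline overlapped norepinephrine below it. Sqstm1 was highest in the libraries labelled APRIL and lowest with norepinephrine, with LPS, BAFF and saline overlapping between. For Gclm and Hmox1 the groups other than APRIL overlapped with their neighbours in level, but Gclm with LPS and Hmox1 with norepinephrine lay above BAFF and saline in both libraries. Nqo1 alone had LPS clear of all other groups and the other 4 overlapping.

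Across the 8 libraries not labelled APRIL, which come from 4 groups of 2, so that a group's shift enters every pair of genes, several members varied together. Pearson correlations of log2(TPM + 1) were 0.958 for Srxn1 with Slc7a11, 0.940 for both Nfe2l2 with Txnrd1 and Txnrd1 with Srxn1, 0.928 for Txnrd1 with Slc7a11 and 0.864 for Nfe2l2 with Slc7a11. Hmox1 stood aside, at 0.0052 to 0.415 with the other 9 members. The genes outside the pathway most like Nfe2l2 over these 8 libraries were Ninl (r = 0.994), H2-K1 (0.994), which encodes a classical MHC class I chain, and Ptges (0.993), a prostaglandin E synthase. These correlations are descriptions over 8 libraries in 4 groups.

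Among the regulators and partners of NRF2, 7 of 9 tested were higher in the libraries labelled APRIL and 1 lower, with a median of 0.97. This count, like those of the lists below for the libraries labelled APRIL, stands beside 33.1% of all genes higher and 58.1% past 0.05 in either direction. List counts with LPS stand beside 2.87% of all genes higher and 132 of 14166 genes lower. Those with norepinephrine stand beside 87 of 14166 genes higher and 12 lower. The small Maf genes, whose proteins pair with NRF2 and with BACH factors, had differences of 2.62 (Mafk, 46.2 TPM there and 6.70 TPM in saline), 2.25 (Maff) and 1.03 (Mafg). The repressor genes Bach1 and Bach2 had 1.47 and 0.92, Cul3, the scaffold of the KEAP1 ligase, 0.97, and Btrc, part of a KEAP1-independent ligase, 0.60. Rbx1, the RING subunit, had -0.83. The Bach2 call was lost with no filter, with the filter at 5 TPM and with the compared libraries alone, and held in 8 of 10 fits that each left out a library. With LPS the 1 gene of this list past 0.05 was Maff, at 38.1 TPM with LPS, against 16.5 TPM in saline (1.15, adjusted p = 0.0188, limma).

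Genes that use, conjugate or export glutathione were divided. Of 19 tested in the libraries labelled APRIL, 5 were higher and 7 lower than in saline, with a median of 0.02. Higher were the exporter Abcc1 (1.65), the transferases Gsta3 (1.41) and Gstp1 (0.87), Ggct (1.20) and the second enzyme of glutathione synthesis, Gss (0.93). Lower were the peroxidases Gpx1 (-2.11), Gpx8 (-1.88), Gpx7 (-1.32) and Gpx3 (-0.72), the glutaredoxin Glrx (-1.30) and the transferases Gstm2 (-1.30) and Gstt1 (-0.51). The Gpx3 call held in only 1 of 10 fits that each left out a library (adjusted p up to 0.178) and the Gstt1 call in 5 (up to 0.219), while those of Glrx, Gsta3 and Gstp1 held in 8. Gpx3 was also lost with the replicate block, with no filter and with the compared libraries alone. Gpx1, a selenium enzyme that removes peroxides with glutathione, averaged 38.8 TPM in the libraries labelled APRIL, against 171 TPM in saline. With LPS the list had a single call, Glrx at 85.9 TPM, against 20.2 TPM in saline (2.02, adjusted p = 0.0192, limma), the opposite sign to that in the libraries labelled APRIL.

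The thioredoxin and peroxiredoxin list was divided in the libraries labelled APRIL, with 3 of 11 higher (Txnip 2.33, Prdx6 0.73, Txnrd3 0.69), 3 lower (Prdx4 -1.18, Prdx2 -0.86, Prdx5 -0.75) and a median of -0.25. The Prdx5 call held in 8 and the Txnrd3 call in 7 of 10 fits that each left out a library. Txnip, which binds and inhibits thioredoxin, averaged 1481 TPM in the libraries labelled APRIL, against 293 TPM in saline. With LPS, Prdx6 averaged 332 TPM, against 157 TPM in saline (1.06, adjusted p = 0.00846, limma), and Txn1, thioredoxin itself, 437 TPM, against 278 TPM (0.65, adjusted p = 0.0303, limma). Both LPS calls were lost with the compared libraries alone, and that of Txn1 also with no filter. Of the 6 genes that supply NADPH, 1 was lower in the libraries labelled APRIL (Idh1, -1.12), and none passed with LPS, where Idh1 (-0.62) and Pgd (0.27) had the smallest p.

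Among 15 tested genes of heme, iron and carbonyl detoxification, 4 were higher in the libraries labelled APRIL (Osgin1 2.57, Ftl1 1.26, Ephx1 0.92, Aox1 0.87) and 5 lower (Akr1b3 -0.87, Blvra -0.61, Nqo2 -0.58, Akr1b8 -0.51, Hmox2 -0.43), with a median of 0.54. The constitutive heme oxygenase Hmox2 had the opposite sign to the inducible Hmox1. Of these 9 calls, that of Akr1b8 held in 3 of 10 fits that each left out a library (adjusted p up to 0.231), Nqo2 in 6, Hmox2, Blvra and Aox1 in 7, and Ephx1 and Ftl1 in 8. Akr1b8 was also lost with no filter and with the compared libraries alone. Fth1, the heavy chain of ferritin, which stores iron, averaged 7449 TPM with LPS, against 2294 TPM in saline (1.65, adjusted p = 0.0349, limma). The Fth1 call was lost with no filter and with the compared libraries alone. Of the 4 tested genes that remove superoxide and hydrogen peroxide, 2 rose with LPS, where 2.87% of all genes passed as higher. Sod2, the mitochondrial enzyme and a known NF-kappaB target, averaged 213 TPM with LPS, against 47.8 TPM in saline (2.14, adjusted p = 0.000941, limma), and the secreted Sod3 210 TPM, against 101 TPM (1.05, adjusted p = 0.0141, limma). In the libraries labelled APRIL, Sod3 was lower (-2.13), the 1 call among the 4 genes of that list.

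In the list of ATF4 targets and cystine supply, Ddit3 and Trib3 were higher in the libraries labelled APRIL and lower with LPS and norepinephrine. In the libraries labelled APRIL 4 of 9 were higher and 2 lower, with a median of 0.13. Higher were Slc3a2, the heavy chain that partners Slc7a11 (3.24, 569 TPM there and 58.4 TPM in saline), the stress factor Ddit3 (2.71), Sesn2 (1.74) and Trib3 (1.50). Psat1 (-1.64) and Cth (-0.96), which make serine and cysteine, were lower, and the Cth call held in 8 of 10 fits that each left out a library. With LPS 3 of 9 were lower, where 132 of all 14166 genes passed as lower, and the median was -0.997. The 3 were Ddit3 at 40.9 TPM with LPS, against 123 TPM in saline (-1.56, adjusted p = 0.000858, limma), Trib3 at 8.38 TPM, against 38.5 TPM (-2.08, adjusted p = 0.00144, limma), and Asns (-1.06, adjusted p = 0.0337, limma). Ddit3 also fell with norepinephrine, to 43.7 TPM, against 123 TPM in saline (-1.46, adjusted p = 0.0204, limma), and so did Trib3, to 13.4 TPM, against 38.5 TPM in saline (-1.45, adjusted p = 0.0280, limma). With norepinephrine 12 of all 14166 genes passed as lower. The Trib3 call with norepinephrine was lost with no filter. Both norepinephrine calls ended when either BAFF, either norepinephrine or either saline library was left out (adjusted p up to 0.0944 for Ddit3 and 0.189 for Trib3).

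The autophagy list, which holds relatives and partners of p62, had 7 of 11 higher in the libraries labelled APRIL (Tfeb 1.77, Optn 1.76, Nbr1 1.55, Gabarapl1 1.39, Atg5 0.75, Calcoco1 0.69, Tax1bp1 0.64) and 2 lower, Map1lc3b (-2.18) and Gabarapl2 (-0.47), with a median of 0.69. Nbr1, a receptor related to p62, averaged 359 TPM in the libraries labelled APRIL, against 122 TPM in saline. No NADPH oxidase gene passed in any comparison with saline. With BAFF no gene of the 9 lists passed, and the smallest p in each belonged to genes such as Gss (0.28), Nbr1 (0.25) and Mafg (0.30). With norepinephrine no list other than that of ATF4 had a call, and Sod2 (0.99, adjusted p = 0.0505), Maff (0.98, 0.0666) and Cbr1 (1.40, 0.0713) came nearest in limma. With the replicate number as a block, Sod2 and Txnip passed as well, and Sod2 also passed with the filter at 5 TPM, under median-ratio scaling and with the compared libraries alone.

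The Y-linked and marker differences given above go with every list in the libraries labelled APRIL, and the adipocyte and smooth muscle marker sums with those for LPS and norepinephrine, and their part was not tested. Of the 10 list genes past 0.05 with LPS, Sod2, Ddit3 and Trib3 stayed past it whichever library was left out. The fewest remaining were 3, without saline replicate 2, and 4 without LPS replicate 1 or saline replicate 1. Txn1, Fth1 and Asns were also lost without either BAFF library. When the libraries labelled APRIL were left out, all 10 remained and 6 joined them with LPS, and 12 joined the 2 with norepinephrine, among them Sod2, Maff and Cbr1. In the libraries labelled APRIL, 39 to 51 of 52 list calls remained when a single library was left out, the fewest without saline replicate 2. Of those 52 calls, 36 held in all 10 such fits.

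**Figure D4:**
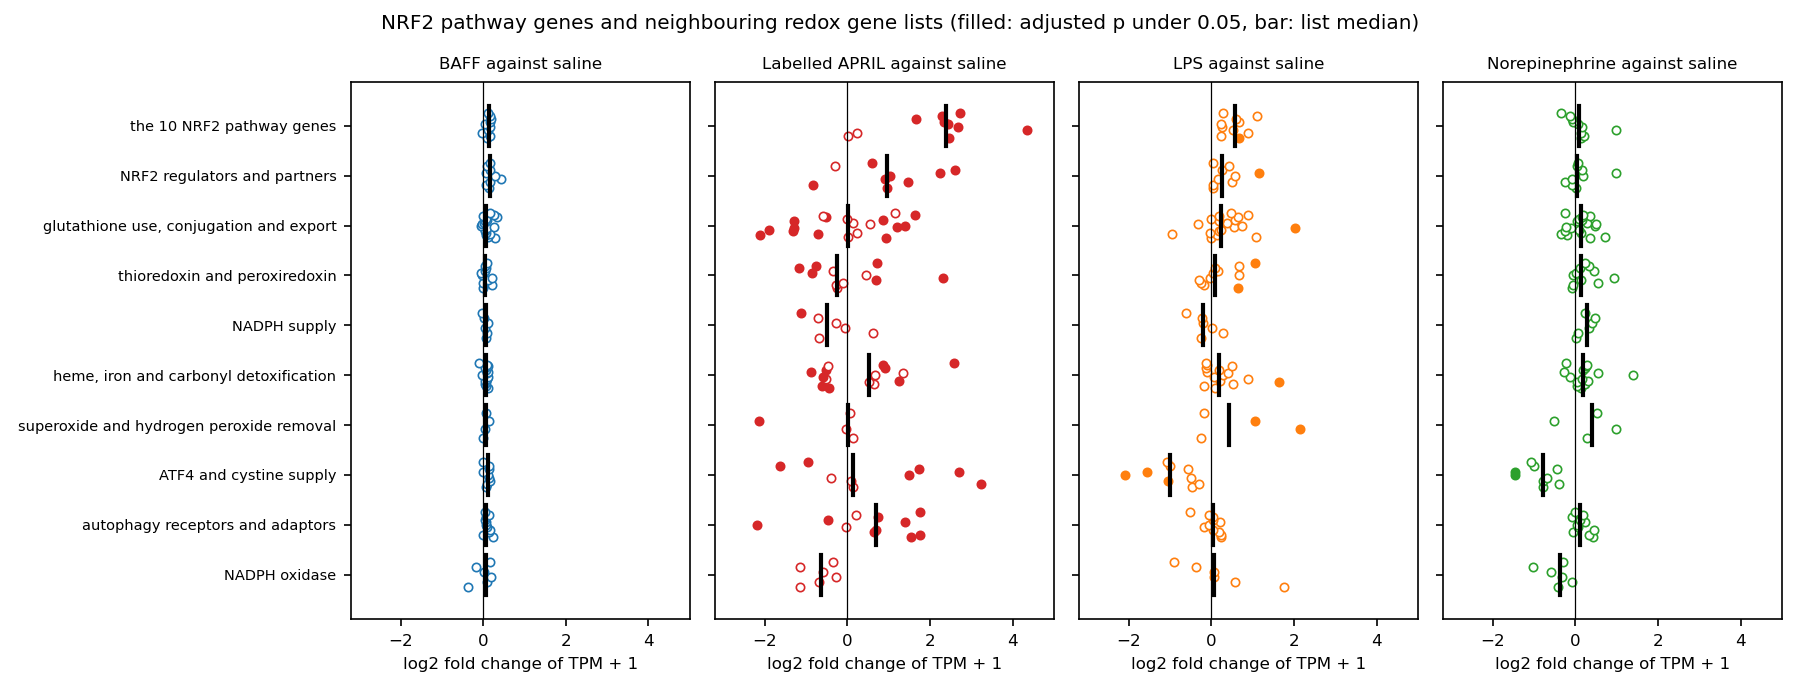
Difference from saline in log2(TPM + 1) for each tested gene of the 9 pathway lists and the 10 members, 1 row a list and 1 panel a comparison, with the difference on the horizontal axis, points for genes, filled where past 0.05 in limma, and a bar for the median of each list. The members' median is 2.39 in the libraries labelled APRIL and 0.56 with LPS, against 0.08 and -0.01 over all genes.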

How the data were processed

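The deposited values are TPM per Ensembl gene, as the files' headers name them. The submitters' processing notes name kallisto and the mm10 genome. The kallisto version, the annotation release and the way transcripts were summed to genes are not given in the sources used here. RNA came from mirVana extraction and the libraries from a TruSeq kit, per the labels' protocols. Symbols from GENCODE mouse M21 matched 27458 of 28987 IDs.

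The members and lists (9 pathway lists and 6 marker lists, 150 genes) were chosen with earlier results of these data known. The 14166 genes that reached 1 TPM in 2 or more libraries entered a single limma fit (limma 3.58.1, R 4.3.3) of 5 group means to log2(TPM + 1) over the 10 libraries. The fit used a mean-variance trend and no block and left 5 residual degrees of freedom, and p-values were adjusted by the Benjamini-Hochberg method with calls at 0.05. All groups share this 1 estimate of spread, and the 4 comparisons with saline share its libraries. All 10 members are named in each comparison, and from each list every gene past 0.05, or up to 2 of the smallest p, of which some are not printed. Genes most like a member were sought for members past 0.05 in the F test over 4 groups, among genes with a mean of at least 5 TPM. The fit was checked on simulated data for LPS against saline alone. The simulated spread came from the libraries not labelled APRIL, so the check does not cover the wider spread of those labelled APRIL. Shared sequence was sought with BLAST 2.17.0 (at least 95% identity over at least 200 bases) in GENCODE transcripts, and Python 3.11.15 with matplotlib 3.10.9 drew the figures. Alternatives were pseudocounts of 0.1 and 0.5, no filter, a filter at 5 TPM, a replicate block, the compared libraries alone, the libraries labelled APRIL left out, 2 other scalings, and each library left out. Promoter sequences are from RefSeq (GRCm38.p6).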

Additional observations from a re-analysis of the deposited data

How the results depend on the processing

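Depth is unknown, and the intervals for Hmox1, Srxn1 and Slc7a11 are wide in the fit over all 10 libraries. The count of members past 0.05 was 0 for BAFF and 0 for norepinephrine under every alternative run. It was 7 to 8 for the libraries labelled APRIL (8 in the report), with Srxn1 lost as given above, and 7 to 8 for BAFF against them (7), with Srxn1 or Keap1 gained. Over 5 groups it was 6 to 8 (7), with Slc7a11 lost with no filter and Srxn1 or Nqo1 gained. For LPS it was 1, but 0 with the compared libraries alone, 2 without the libraries labelled APRIL (Nfe2l2 and Txnrd1), and 0 to 2 when each library was left out. Over the 4 other groups it was 1, but 2 without the libraries labelled APRIL and 0 to 2 when each library was left out. The 0 came without either LPS or either saline library or norepinephrine replicate 1. A group left with 1 library borrows its spread from the others. The cause of these changes was not tested. No called member changed sign under any alternative run. Of all genes, 539 passed with LPS, but 226 with the compared libraries alone, 922 without the libraries labelled APRIL and 112 to 919 with a library left out. With norepinephrine 99 passed, but 43 with a pseudocount of 0.1, 55 with no filter, 65 without mitochondrially encoded genes, 843 without the libraries labelled APRIL and 0 to 840 with a library left out. With BAFF 2 passed, but 0 with a pseudocount of 0.1 or the 4 libraries alone and 12 with no filter. Of the 10 list calls with LPS, 6 remained with no filter and 4 with the compared libraries alone. Glrx, Txn1, Fth1 and Asns were lost in both settings, and Maff and Prdx6 in the second. The replicate numbers share no stated origin. Deviations of libraries with the same number correlated at 0.272 to 0.479 among the 4 groups other than APRIL and at -0.108 to 0.0264 with the libraries labelled APRIL, and 2 numbers a group are too few to show pairing. With a replicate block the counts of members were 0 for BAFF, 8 for the libraries labelled APRIL, 1 for LPS, 0 for norepinephrine, 7 for BAFF against the libraries labelled APRIL, 7 over 5 groups and 1 over 4, and 167 of all genes passed with norepinephrine. Crossing the numbers of the libraries labelled APRIL, a choice made after seeing the data, left 7 for BAFF against them.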
